A study of Mus musculus with 12 samples.

Results

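The 10 genes described here belong to the NRF2 pathway and were chosen by name: the factor gene Nfe2l2, its inhibitor gene Keap1 and 8 genes known as NRF2 targets (Nqo1, Gclc, Gclm, Hmox1, Srxn1, Txnrd1, Slc7a11 and Osgin1). All 10 were found by symbol among the 16821 genes listed for each mouse. Liver RNA was sequenced from 12 adult male C57BL/6J mice, with a library per mouse. The 6 sedentary control (Con) mice stayed in the same room without treadmill access, and the 6 chronic exercise (Exe) mice had 6 weeks of moderate treadmill running. The mice were bought at 8 weeks of age, and no transgene is named for them. They were killed within a day of the last run, after which the liver was perfused with saline. The values are FPKM, fragment counts scaled to transcript length and to library size, so levels of different genes can be compared with each other.

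NRF2, the protein of Nfe2l2, is a transcription factor that turns on genes against oxidants and electrophiles. In resting cells KEAP1, the protein of Keap1, binds NRF2 and brings it to a CUL3 ubiquitin ligase, so that NRF2 is degraded. Oxidants and electrophiles modify cysteines of KEAP1, NRF2 then accumulates, pairs with a small MAF protein and binds antioxidant response elements. Because this control acts on the protein, the RNA of Nfe2l2 is not a measure of NRF2 activity, and the RNA of its targets is the usual readout. In the liver the pathway is known for glutathione synthesis, detoxification and NADPH supply.

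To show what such an element looks like in these genes, the core letters TGACNNNGC were searched on both strands of the RefSeq promoter windows of build GRCm38.p6, which run from 250 bases before to 50 bases after a start site. A window was given for 8 of the 10 genes and 10 windows in all, 3 of them for Txnrd1, and none was given for Gclc or Hmox1. The core was present in 4 of the 10 windows, against 12.4% of all 32851 windows. The authors aligned their reads to GRCm39, so these coordinates are not those of the expression data. Each match is printed 5′ to 3′ on the minus strand of the chromosome, with the core in capitals and 10 bases on each side, at chr2:75704885-75704913 for Nfe2l2, chr3:122245413-122245441 for Gclm, chr2:152105542-152105570 for Srxn1 and chr10:82859104-82859132 for Txnrd1.
Nfe2l2: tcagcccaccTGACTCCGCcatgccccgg
Gclm: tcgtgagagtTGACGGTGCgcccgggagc
Srxn1: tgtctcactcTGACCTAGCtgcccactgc
Txnrd1: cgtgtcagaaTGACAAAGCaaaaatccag
The match of Srxn1 lies after the start site and the other 3 lie before it. These are matches of letters and no binding was measured. In Keap1, Nqo1, Slc7a11 and Osgin1 the letters were not found in these windows, which says nothing about elements farther away.

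The liver identity of the samples was checked with 7 hepatocyte markers, all of them measured, whose summed FPKM ran from 55390 to 70680 over the Con livers and from 61360 to 76790 over the Exe livers. In 4 of the 6 Exe mice this sum was above that of every Con mouse (exact two-sided permutation p = 0.0281, 0.202 after Benjamini-Hochberg adjustment over 11 marker lists). The summed pancreatic acinar list was also higher in Exe mice, by 0.47 on the log2 scale (exact two-sided permutation p = 0.0368, 0.202 after the same adjustment). All 73 genes of the 11 lists were measured and 0 were at 0 in all mice. Of the 8 pancreatic acinar genes 2 averaged at least 1 FPKM over the mice, as did 2 of the 6 neutrophil genes. In bulk liver, a change in the number of cells of a type and a change in RNA per cell cannot be told apart. Exe 5 stood apart in several lists. Its pancreatic acinar list summed to 30.01 FPKM against 8.51 to 17.0 FPKM in the other 11 mice, and its red blood cell list summed to 1290 FPKM against 235 to 912 FPKM. Its acute-phase list summed to 34130 FPKM and that of Con 1 to 34970 FPKM, with the other 10 mice lower. Exe 5 was also the lowest mouse of the pericentral list (4690 FPKM against 5175 to 7177 in the other 11 mice) and of the periportal list (1881 FPKM against 2252 to 2960).

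Compared with the Con group, 0 of the 9 members that could be tested passed both thresholds in the Exe group, which were 0.05 for the adjusted p and 1 for the size of the log2 fold change (limma with Benjamini-Hochberg adjustment over all 10241 genes with at least 1 FPKM in at least 6 mice). Over all genes these thresholds called 0% in this fit. With the same cutoffs and DESeq, the authors reported genes that differed between these groups in both directions. DESeq needs counts, which were not used here, so the 0% describes limma on FPKM only. Before adjustment, limma put 0 of the 9 members under a p of 0.05, where 4.27% of all genes were called higher and 1.94% lower in Exe mice. The split of these calls over all genes was 437 higher and 199 lower, and with quantile normalization between mice it was 348 higher and 269 lower. Of the 9 members, 3 had a positive and 6 a negative log2 fold change, with a median of -0.03 against 0.02 over all genes tested. The smallest exact two-sided permutation p that 6 against 6 mice can give is 0.00217, and the members had exact p-values of 0.264 or higher. The widest 95% interval of a log2 fold change was that of Osgin1 and the narrowest that of Keap1.

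**Figure D1:**
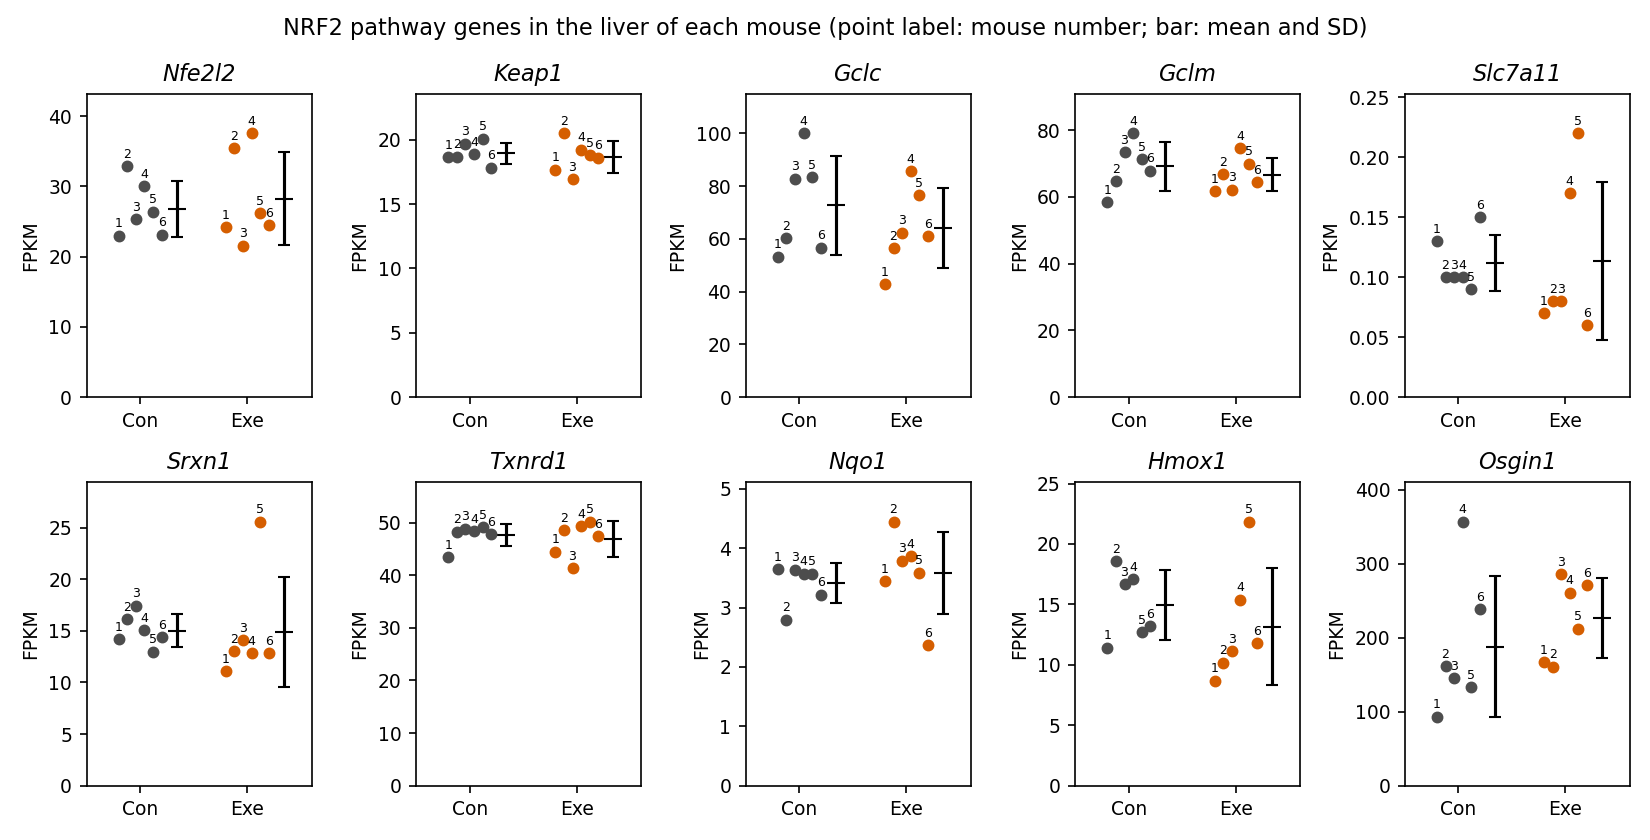
FPKM of the 10 genes in each mouse, with Con mice in grey and Exe mice in orange, points labelled by mouse number, and a bar for the mean and SD of 6 mice. The groups overlap in every panel, Srxn1 is far above the other mice in Exe 5 (25.6 FPKM), and Osgin1 is highest in Con 4 (357 FPKM).

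Among the regulators, Nfe2l2 (NCBI gene ID 18024) was at 23.0 FPKM in the lowest Con mouse, at a median of 25.9 and at 32.9 in the highest. In Exe mice it was at 21.6 FPKM in the lowest, at a median of 25.4 and at 37.6 in the highest. Exe 2 (35.5 FPKM) and Exe 4 (37.6 FPKM) lay above every Con mouse and Exe 3 lay below every Con mouse, so the groups overlapped. The log2 fold change was 0.06 (standard error 0.14, 95% interval -0.24 to 0.35, adjusted p = 0.969 from limma). It was -0.03 without Exe 4, -0.01 without Exe 2 and 0.02 without Con 1, so its sign rested on single mice.

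Keap1 (50868) was the steadiest member. It ranged from 17.8 FPKM over a median of 18.8 to 20.1 in Con mice, and from 17.0 FPKM over a median of 18.7 to 20.5 in Exe mice. The ranges of the groups nearly coincided. The log2 fold change was -0.03 (95% interval -0.14 to 0.09, adjusted p = 0.964 from limma), which bounds the fold of Exe over Con to between 0.907 and 1.06. Over the 12 mice the SD of its log2 values was larger than that of 3.96% of all genes tested.

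The levels of the factor and of its inhibitor were set against each other within each mouse. Nfe2l2 was above Keap1 in 12 of 12 mice, with an FPKM ratio of 1.23 in Con 1, the lowest, and 1.95 in Exe 4, the highest. The median ratio was 1.31 in Con mice and 1.38 in Exe mice. On the log2 scale with 1 FPKM added, the ratio was 0.467 ± 0.199 in Con mice and 0.549 ± 0.241 in Exe mice (SD, n = 6 in each group), a difference within the spread of the mice (exact two-sided permutation p = 0.522).

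Glutathione synthesis is represented by 3 members. Gclc (14629), the catalytic subunit of glutamate-cysteine ligase, the rate-limiting enzyme of this synthesis, was at 53.3 FPKM in the lowest Con mouse, at a median of 71.5 and at 100.1 in the highest. In Exe mice it was at 42.8 FPKM in the lowest, at a median of 61.8 and at 85.7 in the highest. Con 4 held the highest and Exe 1 the lowest value of all 12 mice, and the remaining mice overlapped. On the log2 scale Exe differed from Con by -0.17 (standard error 0.18, 95% interval -0.56 to 0.21, adjusted p = 0.932 from limma). It was -0.06 without Exe 1 and -0.07 without Con 4.

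Gclm (14630), the modifier subunit of the same enzyme, varied less than Gclc. It ranged from 58.4 FPKM over a median of 69.6 to 79.1 in Con mice, and from 61.8 FPKM over a median of 65.6 to 74.7 in Exe mice, all of which lay within the Con range. Its log2 fold change was -0.05 (95% interval -0.21 to 0.11, adjusted p = 0.957 from limma). Without Con 1, its lowest mouse, it was -0.09, and without Con 4, its highest, it was -0.01. Gclc was above Gclm in 6 of 12 mice, so that the order of these subunits was not fixed. The FPKM ratio of Gclc to Gclm ran from 0.693 in Exe 1 to 1.27 in Con 4, and its log2 value with 1 FPKM added was 0.041 ± 0.234 in Con mice and -0.083 ± 0.262 in Exe mice (SD, n = 6, exact two-sided permutation p = 0.409).

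Slc7a11 (26570) encodes the cystine carrier of the cystine-glutamate exchanger, which brings in cystine for glutathione synthesis. It was close to the limit of the values, at 0.09 to 0.15 FPKM in Con mice with a median of 0.10, and at 0.06 to 0.22 FPKM in Exe mice with a median of 0.08. Exe 4 (0.17 FPKM) and Exe 5 (0.22 FPKM) lay above every Con mouse, and the other 4 Exe mice lay below every Con mouse. The gene did not pass the filter on low values, so it is not among the genes fitted with limma above. In a limma fit without the filter its log2 fold change was 0.0004 (adjusted p = 1), and the exact two-sided permutation p was 1. FPKM this low rest on few reads, and how many is unknown. Slc3a2, the heavy chain that carries this exchanger to the membrane and serves other amino acid transporters too, averaged 21.8 ± 1.97 FPKM in the Con group and 22.4 ± 1.70 in the Exe group (SD, n = 6, adjusted p = 0.961 from limma). This gene was named after its values were seen.

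The thioredoxin system is represented by Srxn1 and Txnrd1. Srxn1 (76650), sulfiredoxin, which repairs overoxidized peroxiredoxins, was at 13.0 FPKM in the lowest Con mouse, at a median of 14.7 and at 17.4 in the highest. In Exe mice it was at 11.1 FPKM in the lowest, at a median of 12.9 and at 25.6 in the highest. The highest value was that of Exe 5, and the next Exe mouse was at 14.1 FPKM, while 3 of the 6 Exe mice lay below every Con mouse. The log2 fold change was -0.06 (standard error 0.15, 95% interval -0.39 to 0.27, adjusted p = 0.974 from limma).

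Without Exe 5, Srxn1 was at 12.8 ± 1.07 FPKM in the remaining 5 Exe mice against 15.0 ± 1.57 FPKM in the 6 Con mice. The log2 fold change was then -0.22 (95% interval -0.38 to -0.05), and the exact two-sided permutation p was 0.0152, with a limma adjusted p of 0.518, so the gene did not pass the correction. Exe 5 was the highest mouse of this gene, and neither p accounts for the choice of the mouse left out. In the fit without Exe 5, an unadjusted p of 0.05 called 5.34% of all genes higher and 3.54% lower. The neutrophil list was also high in Exe 5, at a sum of 49.5 FPKM, and it was as high in Exe 3 (49.8 FPKM), where Srxn1 was at 14.1 FPKM. The part of other cells and of the acute phase in the Srxn1 level of Exe 5 was not tested.

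Txnrd1 (50493), the cytosolic thioredoxin reductase, was nearly as steady as Keap1. It ranged from 43.5 FPKM over a median of 48.3 to 49.2 in Con mice, and from 41.3 FPKM over a median of 48.0 to 50.2 in Exe mice. Con 1 was low for its group, as were Exe 1 and Exe 3 for theirs, and the groups overlapped. The difference was -0.03 on the log2 scale (95% interval -0.15 to 0.10, adjusted p = 0.966 from limma), a fold of Exe over Con between 0.904 and 1.07, and without Con 1 it was -0.05.

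**Figure D2:**
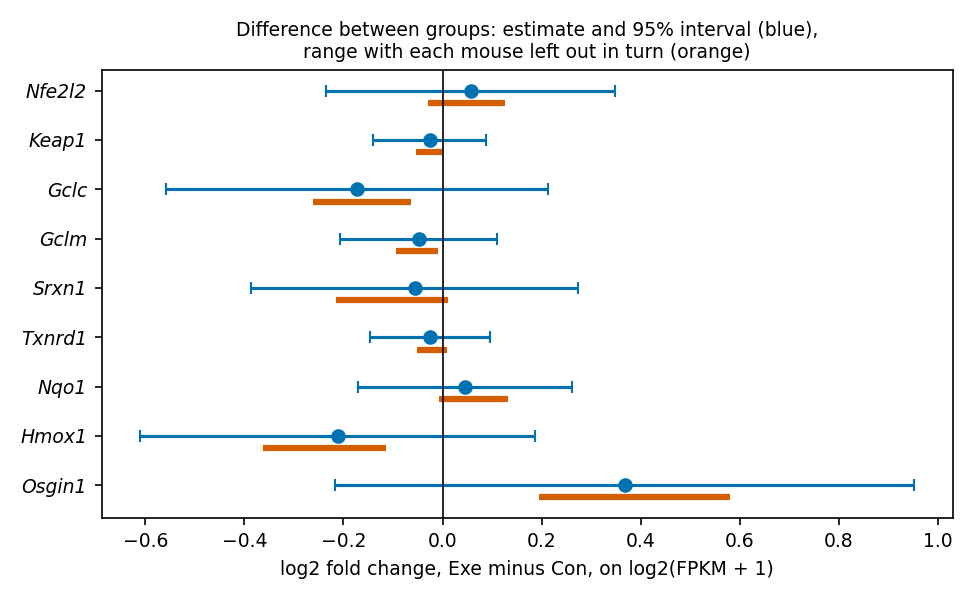
Log2 fold change of Exe over Con mice on the log2(FPKM + 1) scale for the 9 tested genes, as an estimate with its 95% interval in blue and, in orange, the range of estimates with each mouse left out in turn. Every interval includes 0, and the estimates of Nfe2l2, Srxn1, Txnrd1 and Nqo1 change sign when single mice are left out.

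Nqo1 (18104), a quinone reductase and a widely used marker of NRF2 activity, was low in these livers. It ranged from 2.80 FPKM over a median of 3.57 to 3.65 in Con mice, and from 2.37 FPKM over a median of 3.69 to 4.45 in Exe mice. Exe 2, Exe 3 and Exe 4 lay above every Con mouse, and Exe 6 lay below every Con mouse. Its log2 fold change was 0.05 (standard error 0.10, 95% interval -0.17 to 0.26, adjusted p = 0.966 from limma), and without Exe 2 it was -0.01.

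Hmox1 (15368), heme oxygenase 1, breaks down heme, and in the liver it is also strongly expressed by Kupffer cells, the resident macrophages. It ranged from 11.4 FPKM over a median of 14.9 to 18.6 in Con mice, and from 8.68 FPKM over a median of 11.5 to 21.9 in Exe mice. Exe 5 lay above every Con mouse, and Exe 1, Exe 2 and Exe 3 lay below every Con mouse. Its log2 fold change was -0.21 (standard error 0.19, 95% interval -0.61 to 0.19, adjusted p = 0.93 from limma). Without Exe 1, the lowest mouse, it was -0.11. Without Exe 5, the highest, it was -0.36 (95% interval -0.67 to -0.05), with 14.9 ± 2.88 FPKM in the 6 Con mice and 11.4 ± 2.50 FPKM in 5 Exe mice, an exact two-sided permutation p of 0.0563 and an adjusted p of 0.538 from limma. Neither p accounts for the choice of the mouse left out.

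The 10 Kupffer cell markers, all measured, had sums of 303 to 558 FPKM over the Con livers and of 220 to 501 FPKM over the Exe livers. The mouse with the highest sum, Con 2, held the highest Hmox1 of the Con mice, and the Exe mouse with the highest sum, Exe 5, held the highest Hmox1 of all. The Exe mouse with the lowest sum, Exe 2, was at 10.2 FPKM of Hmox1, and Con 1, with a sum of 459 FPKM, was at 11.4 FPKM. Exe 3, with a sum of 427 FPKM, was at 11.1 FPKM of Hmox1, and Con 3, with a sum of 334 FPKM, was at 16.7 FPKM. The part of Kupffer cells in the Hmox1 level was not tested.

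Osgin1 (71839), an oxidative stress-induced growth inhibitor, had the highest level of the 10 genes and, of the 9 tested, the widest spread on the log2 scale. It was at 93.5 FPKM in the lowest Con mouse, at a median of 153 and at 357 in the highest. In Exe mice it was at 161 FPKM in the lowest, at a median of 237 and at 286 in the highest, all within the Con range. Both extremes were Con mice, Con 1 and Con 4, whose acute-phase lists summed to 34970 and 4190 FPKM, the highest and the lowest sums of the 12 mice. Exe 5, with 34130 FPKM of that list, was at 212 FPKM of Osgin1. Other mice with low sums were Con 5 (5058 FPKM), Exe 2 (4798) and Exe 4 (4430), with Osgin1 at 133, 161 and 261 FPKM. The part of the acute phase was not tested. Osgin1 had a log2 fold change of 0.37 (standard error 0.27, 95% interval -0.22 to 0.95, adjusted p = 0.914 from limma). Without Con 4 it was 0.58 (95% interval 0.10 to 1.06), with 5 Con mice at 154 ± 53.5 FPKM and 6 Exe mice at 226 ± 54.3, an exact two-sided permutation p of 0.0519 and an adjusted p of 0.597 from limma. Neither p accounts for the choice of Con 4, the highest mouse. Without Con 1, the other extreme, the log2 fold change was 0.19. In the fit without Con 4, 5.79% of all genes were called higher at an unadjusted p of 0.05.

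In order of their mean FPKM over 12 mice, the genes were Osgin1 (207), Gclc (68.5), Gclm (67.9), Txnrd1 (47.2), Nfe2l2 (27.5), Keap1 (18.8), Srxn1 (15.0), Hmox1 (14.1), Nqo1 (3.50) and Slc7a11 (0.113). Neighbours in this order kept it in 12 of 12 mice, except for Gclc and Gclm (6 of 12), Keap1 and Srxn1 (11 of 12) and Srxn1 and Hmox1 (9 of 12). Nqo1 was thus lower than Hmox1 by a factor of 4.02, and Slc7a11 lower than Nqo1 by a factor of 31.1. Among all genes above 0 in any mouse, the mean of Osgin1 was higher than that of 97.4% and the mean of Slc7a11 higher than that of 21.9%.

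The spread between mice also set the genes apart. The SD of log2 values over 12 mice was larger for Osgin1 than for 98.2% of all genes tested, for Hmox1 than for 94.8%, for Gclc than for 94.1%, for Srxn1 than for 90.3% and for Nfe2l2 than for 86.6%. For Nqo1 this share was 68.8%, for Gclm 38.9% and for Txnrd1 8.22%. The coefficient of variation over 12 mice was 41.7% for Slc7a11, whose values are close to their limit, 37.0% for Osgin1, 27.7% for Hmox1, 24.96% for Srxn1 and 24.6% for Gclc, against 5.73% for Txnrd1 and 5.40% for Keap1. Genes of the same pathway in the same livers therefore ranged from among the steadiest to among the most variable.

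**Figure D3:**
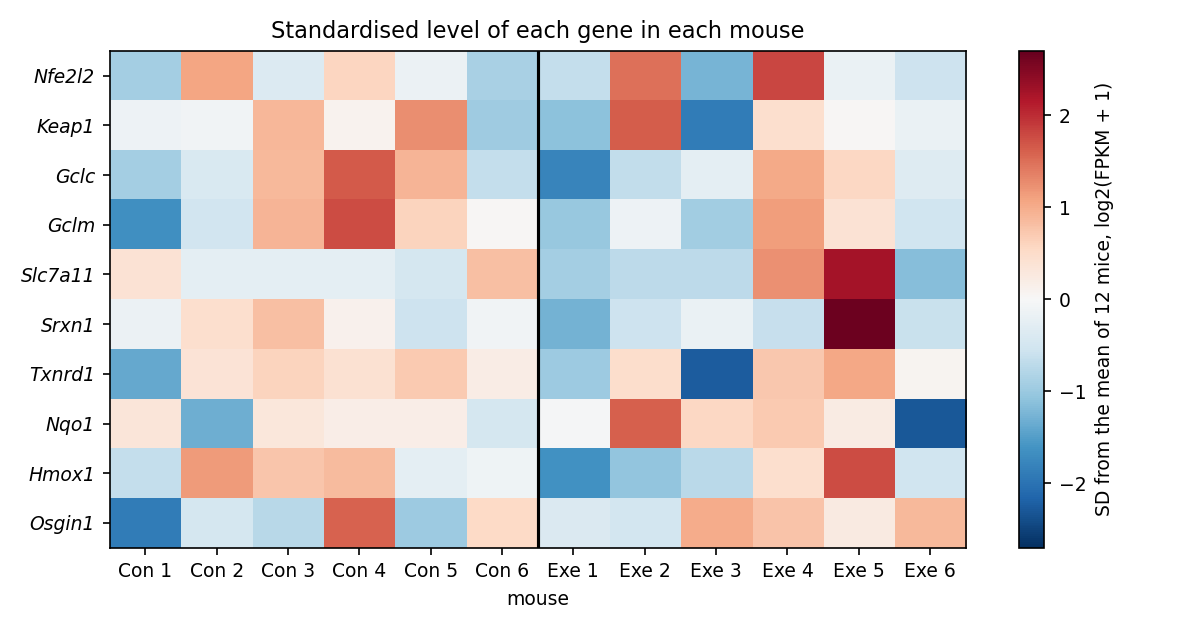
Level of each gene in each mouse, in SDs from the mean of the 12 mice on the log2(FPKM + 1) scale, with Con mice left and Exe mice right of the black line and red for high. High and low mice occur in both groups, with Exe 5 highest in 4 of the 10 genes and Con 4 in 3.

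The highest values of the members fell in mice of both groups. Exe 5 held the highest value of 4 genes (Hmox1, Srxn1, Txnrd1 and Slc7a11), Con 4 of 3 genes (Gclc, Gclm and Osgin1) and Exe 2 of 2 genes (Keap1 and Nqo1). For Txnrd1, Exe 5 was at 50.2 FPKM against 49.3 in Exe 4, and Slc7a11 was close to the limit of the values. Of the 7 tested targets, 7 were above their median over the mice in Exe 5, 6 in each of Con 3, Con 4 and Exe 4, and 0 in Exe 1. How often all genes tested were highest, or above their median, in each mouse was not counted. These counts therefore only describe the members. The mean standardised level of these targets was highest in Exe 5 (0.98 SD) and Con 4 (0.94 SD), and lowest in Exe 1 (-1.02 SD) and Con 1 (-0.90 SD), so that each group had a mouse at either end.

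How the genes varied together was measured over the 12 mice as correlations of log2(FPKM + 1), for all 45 pairs of members with 100000 permutations and Benjamini-Hochberg adjustment over the pairs. Of the 36 pairs of tested members, 31 had a positive Pearson's r, with a median of 0.329, where over all pairs of genes tested 55.8% were positive and the median was 0.053. With quantile normalization the median r of the 36 pairs was 0.273. By r, 2 of the 45 pairs reached an adjusted permutation p of 0.05, and by Spearman's rho 1 pair did. Before adjustment, 11 pairs had a permutation p under 0.05 by r. How many of all pairs of genes tested reach that p was not counted. The pairs of members share genes and mice and are not independent, so the count of 11 only describes the members.

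The closest pair was Gclc and Gclm, the subunits of glutamate-cysteine ligase, with r = 0.885 (permutation p = 0.00024, adjusted 0.0054) and rho = 0.853 (permutation p = 0.0008, adjusted 0.036). Without Con 4 and Exe 1, the mice farthest from the median of Gclc, r was 0.852 (permutation p = 0.00191). Within Con mice r was 0.919 (exact permutation p = 0.0111, n = 6) and rho 0.886 (exact permutation p = 0.0333). Within Exe mice r was 0.845 (exact permutation p = 0.0347, n = 6) and rho 0.771 (exact permutation p = 0.103). With quantile normalization r was 0.904. Mice with more of the catalytic subunit thus had more of the modifier subunit in both groups, although Gclc spanned 2.34-fold over the mice and Gclm 1.35-fold.

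Hmox1 and Srxn1 had r = 0.819 (permutation p = 0.00024, adjusted 0.0054) and rho = 0.727 (permutation p = 0.00956, adjusted 0.0717), so the ranks did not pass the adjustment. Without Exe 1 and Exe 5, the lowest and the highest mouse in both genes, r was 0.666 (permutation p = 0.0362). Within Con mice r was 0.754 (exact permutation p = 0.0903, n = 6) and within Exe mice 0.867 (exact permutation p = 0.0333, n = 6), with rho of 0.771 and 0.486 (exact permutation p = 0.103 and 0.356).

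**Figure D4:**
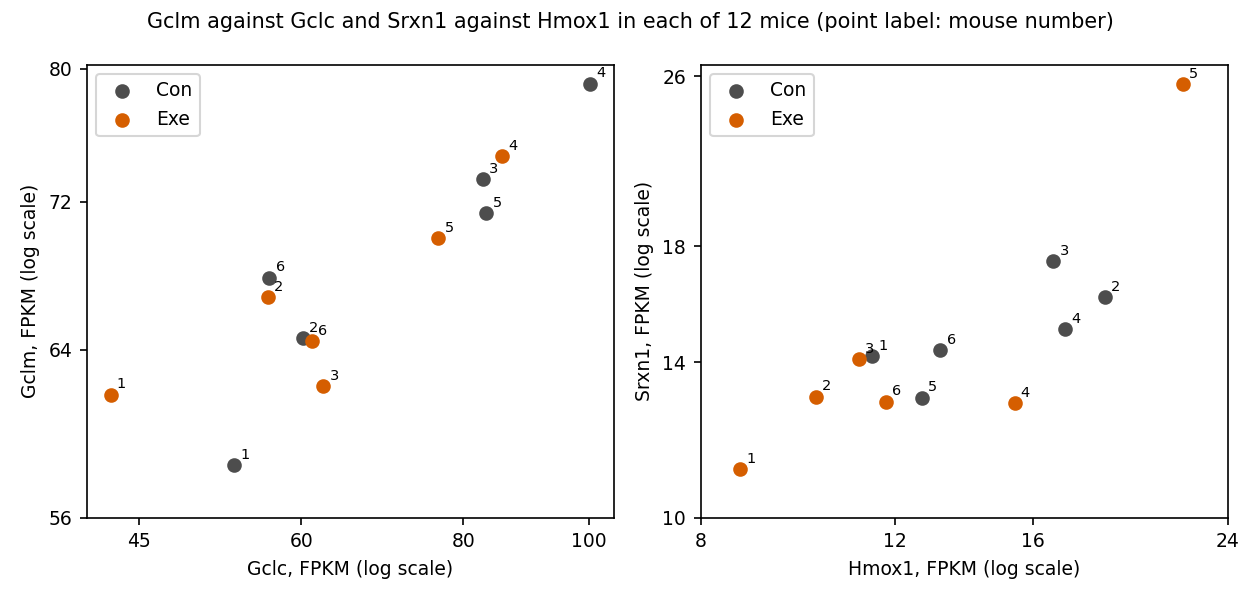
FPKM of Gclm against Gclc (left) and of Srxn1 against Hmox1 (right) in each mouse on log axes, with Con mice in grey, Exe mice in orange and points labelled by mouse number. Gclc and Gclm are high in the same mice of both groups (r = 0.885), and Exe 5 stands at the upper end of Hmox1 and Srxn1 (r = 0.819).

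The RNA of the factor was compared with that of each target, and 0 of these 8 pairs passed the adjustment. Nfe2l2 had an r of 0.600 with Txnrd1 (permutation p = 0.0335, adjusted 0.151), with a rho of 0.741 (permutation p = 0.00836, adjusted 0.0717), and without Exe 2 and Exe 4 its r was 0.62 (permutation p = 0.0539). Without Con 1 and Exe 3, the mice farthest from the median of Txnrd1, Nfe2l2 had an r of 0.371 with Txnrd1, and with quantile normalization one of 0.38. With Gclm it had an r of 0.489 (permutation p = 0.109) and a rho of 0.636 (permutation p = 0.0306, adjusted 0.138). With Hmox1 its r was 0.300 over all mice (permutation p = 0.34) and 0.653 without Exe 2 and Exe 4 (permutation p = 0.0409), with 0.821 within Con mice (exact permutation p = 0.0569, n = 6) and 0.178 within Exe mice (exact permutation p = 0.767, n = 6). The r was 0.351 with Gclc, 0.263 with Nqo1, 0.141 with Slc7a11, 0.109 with Osgin1 and -0.05 with Srxn1, and that with Nqo1 was -0.27 without Exe 2 and Exe 4. With Keap1 r was 0.619 (permutation p = 0.0332, adjusted 0.151) and rho 0.769 (permutation p = 0.00568, adjusted 0.0639). Without Exe 2 and Exe 4, r of Nfe2l2 with Keap1 was 0.491 (permutation p = 0.149), and without Exe 2 and Exe 3, the mice farthest from the median of Keap1, it was 0.344. Within Con mice it was 0.166 (exact permutation p = 0.739, n = 6) and within Exe mice 0.856 (exact permutation p = 0.0236, n = 6), and with quantile normalization over all mice it was 0.433. Osgin1 had an r between -0.37 (Keap1) and 0.447 (Gclm) with the other members, of which 0 had an unadjusted permutation p under 0.05. Without Con 1 and Con 4, the extremes of Osgin1, its r with Gclm changed sign to -0.21 and that with Keap1 was -0.61.

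The genes most like Nqo1 over the 12 mice, by r among all genes tested, were Aldh8a1 (0.902), Ubap2l (0.873), Ankhd1 (0.853), Nf2 (0.851) and Slc10a1 (0.843). Those most like Nfe2l2 were Akap8 (0.954), Zcchc14 (0.953), Cnot3 (0.935), 2310022B05Rik (0.923) and Fgd6 (0.904). None of these 10 genes is among the members or the other pathway genes below. They are the extremes of a search over all genes tested and are given as a description.

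A wider list of 64 NRF2 pathway genes beside the members was set by role, and 61 of them passed the filter on low values. In Exe mice 31 of these were higher and 30 lower, and their median log2 fold change was 0.0002. Over all genes tested, 5892 were higher and 4349 lower. By limma, 0 of the 61 genes reached an adjusted p of 0.05, and at an unadjusted p 3 were higher and 0 lower, beside the 4.27% and 1.94% of all genes. Among the regulators, 5 of 14 were higher, and Rbx1, the RING subunit of the CUL3 ligase, averaged 24.5 ± 1.47 FPKM in the Con group and 26.6 ± 1.26 in the Exe group (SD, n = 6, adjusted p = 0.799 from limma). Mafk, a small MAF partner of NRF2, had the largest difference of this group, -0.16 on the log2 scale (adjusted p = 0.9 from limma). For the Cul3 gene itself the difference was 0.06 on this scale (adjusted p = 0.933 from limma).

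For NADPH supply, 4 of 6 genes were higher, with a median log2 fold change of 0.11. Pgd, 6-phosphogluconate dehydrogenase of the pentose phosphate pathway, averaged 24.6 ± 2.58 FPKM in the Con group and 29.04 ± 3.53 in the Exe group (SD, n = 6, log2 fold change 0.23, adjusted p = 0.793 from limma). G6pdx, which catalyses the step that feeds the same pathway, differed by -0.21 on the log2 scale (adjusted p = 0.863 from limma), opposite in sign to Pgd.

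Of the detoxification genes, 22 of 24 were tested, 11 higher and 11 lower. Cbr1, a carbonyl reductase, averaged 40.5 ± 4.78 FPKM in the Con group and 48.4 ± 5.51 in the Exe group (SD, n = 6, log2 fold change 0.25, adjusted p = 0.793 from limma). Gsta2, a glutathione S-transferase whose reads can be shared with the near-identical Gsta1 and whose level is uncertain for that reason, had the largest difference, 0.45 on the log2 scale (adjusted p = 0.877 from limma). Without Con 1 the Gsta2 difference was 0.26. Glrx, glutaredoxin, led the 5 glutathione genes tested with 0.16 (adjusted p = 0.859 from limma), of which 3 were higher. Prdx6, a peroxiredoxin, led the 3 thioredoxin genes with 0.11 (adjusted p = 0.902 from limma), of which 3 were higher. The other thioredoxin genes lay close to 0, Txn1 at 0.01 and Prdx1 at 0.0002.

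The heme and iron genes kept closest to 0. Of these 7 genes 4 were higher, and the largest difference was that of Fth1, the ferritin heavy chain, 0.07 on the log2 scale (adjusted p = 0.933 from limma). Of 4 other targets 1 was higher, and Trib3, a pseudokinase that the integrated stress response also induces, had the largest difference of all 61 genes, from a mean of 6.90 ± 1.91 FPKM in the Con group to a mean of 4.76 ± 2.27 in the Exe group (SD, n = 6, log2 fold change -0.52, adjusted p = 0.799 from limma, exact two-sided permutation p = 0.104).

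**Figure D5:**
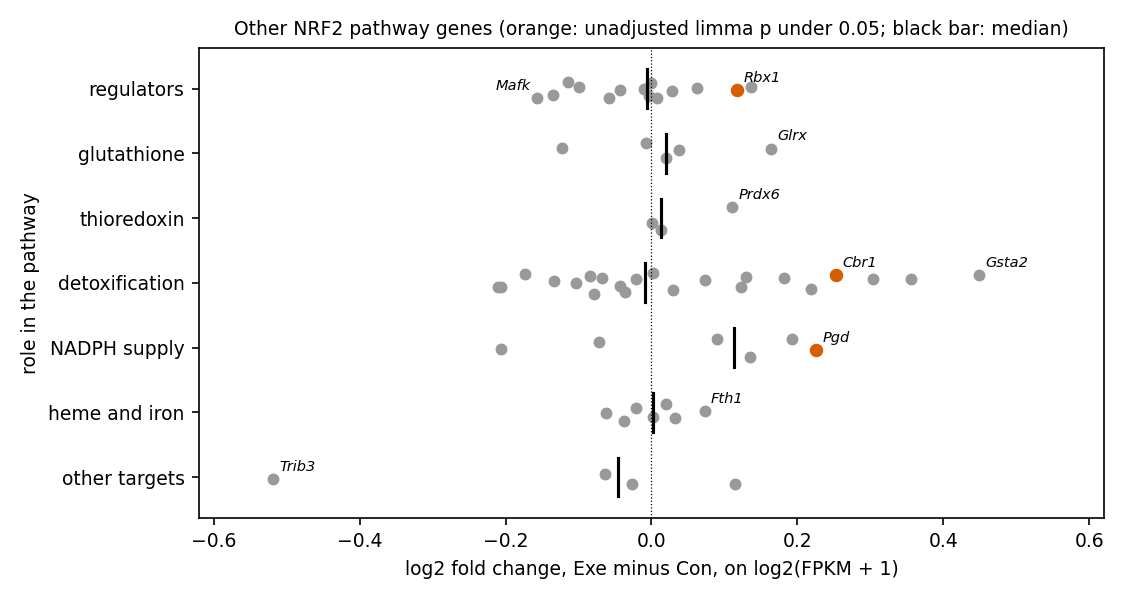
Log2 fold change of Exe over Con mice on the log2(FPKM + 1) scale for the 61 other pathway genes tested, by role, with a black bar at the median of each role and in orange the 3 genes at an unadjusted limma p under 0.05. The points lie on both sides of 0 in each role but thioredoxin, where Prdx1 lies at 0.0002, and none reached an adjusted p of 0.05.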

How the data were processed

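The authors cleaned paired reads from the DNBseq platform, aligned them to GRCm39 with HISAT and deposited FPKM per gene and mouse, to 2 decimals. Their methods name a principal component analysis to exclude outlying mice, and how many were excluded is not given in the sources used here. The processing notes also list Bowtie2 and mm10 without a role. The tool behind the FPKM, the annotation release and any scaling between mice are not given in the sources used here. Summed over genes, a mouse had 735200 to 820107 FPKM. The depth in reads is unknown, so errors are the spread over 6 mice per group.

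Groups were taken from the sample titles. Values were tested as log2(FPKM + 1), a scale that makes fold changes of low genes too small. Genes with at least 1 FPKM in at least 6 mice were fitted with limma 3.58.1 in R 4.3.3 (lmFit, eBayes with a trend, group as the only term), with Benjamini-Hochberg adjustment over all genes tested. Single values were tested by exact two-sided permutation over the 924 divisions of the mice. Permutations and ratios used scipy 1.17.1, pandas 2.3.3 and numpy 2.4.6 under Python 3.11.15, and plots used matplotlib 3.10.9. The limma fit was tested on simulated data.

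The members and lists were chosen with earlier results of these data known. The genes named were the members, the pathway genes at an unadjusted p under 0.05 or with the largest difference in their role, and the 5 genes most correlated with Nqo1 and with Nfe2l2. Slc3a2, Cul3 and G6pdx were named after their values were seen, and Txn1 and Prdx1 are also named outside this rule. Of the 11 marker lists, those of sinusoidal endothelium (47.3 to 74.6 FPKM over the 12 mice), stellate cells (45.5 to 85.8) and bile duct (25.4 to 76.7, highest in Exe 5) are given here only. Alternatives were a pseudocount of 0.1, no filter, a stricter filter, quantile normalization, robust variance moderation, the replicate number as a block and each mouse left out in turn.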

Additional observations from a re-analysis of the deposited data

Results flagged for a closer look

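In 24 sets of 6 mice (10 genes and 2 ratios in 2 groups), a mouse was far from the others of its group by Dixon's ratio above the critical value in 2 sets, where chance flags about 1. Srxn1 in Exe 5 was at 25.6 FPKM, with the next Exe mouse at 14.1 (Dixon's ratio 0.794). Txnrd1 in Con 1 was at 43.5 FPKM, with the next Con mouse at 47.8 (Dixon's ratio 0.753).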

How the results depend on the processing

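The alternatives gave 392 values, of which 384 had the sign and the side of the threshold of the reported value and 5 changed sign. The filters, the robust variance moderation and the replicate block cannot change a log2 fold change in this design. Adjusted p-values far above 0.05 were also unlikely to cross it. The count of 384 is therefore not a measure of how stable the results are. The count of members past both thresholds was 0 in all 18 alternatives of the limma fit, and the lowest adjusted p of a member over them was 0.518. At an unadjusted p of 0.05 the count of members was 0, and with each mouse left out it ranged from 0 to 2: Hmox1 and Srxn1 without Exe 5, and Osgin1 without Con 4. In each case the mouse left out was the highest of its group in that gene. With the replicate block the count was 1, for Gclc (log2 fold change -0.17, 95% interval -0.34 to -0.01, adjusted p = 0.864 from limma). The exact two-sided permutation p of Gclc within same-numbered mice was 0.094. In this fit, 3.83% of all genes were called higher and 1.71% lower at an unadjusted p of 0.05. The labels do not say that a number pairs mice, and deviations of same-numbered mice correlated between -0.478 and 0.165, with 1 of 6 Con mice closest to its own number. With each mouse left out, the log2 fold change ranged from -0.029 (without Exe 4) to 0.13 for Nfe2l2, from -0.0067 (without Exe 2) to 0.13 for Nqo1, from -0.22 to 0.011 (without Exe 1) for Srxn1 and from -0.051 to 0.0097 (without Exe 3) for Txnrd1. It kept its sign for Keap1 (-0.053 to -0.00058), Gclc (-0.26 to -0.064), Gclm (-0.095 to -0.0085), Hmox1 (-0.36 to -0.11) and Osgin1 (0.19 to 0.58). Settings that need counts were not run, and Slc7a11 is too low for a fold change.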
